A study of Mus musculus with 12 samples.

Results

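The growth hormone, STAT5 and IGF axis was examined in mouse liver through 10 genes of the 21936 in the deposited table, each found by its gene name. They are the growth hormone receptor Ghr, the signal transducer Stat5b, the feedback genes Socs2 and Cish, the hormone Igf1, its carrier Igfals and the binding proteins Igfbp1, Igfbp2, Igfbp3 and Igfbp4. In the liver, growth hormone binds its receptor, the kinase JAK2 phosphorylates STAT5B, and STAT5B enters the nucleus and drives transcription of Igf1, Igfals, Socs2 and Cish. IGF-I leaves the hepatocyte and circulates bound to IGF binding proteins, mostly in a complex of IGFBP3 and the acid labile subunit encoded by Igfals, while IGFBP1 is a short-lived binding protein that insulin suppresses and fasting raises. The pulsatile growth hormone of males and the steadier hormone of females give the rodent liver its sex-specific genes through the same STAT5B.

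Liver RNA came from male C57BL/6 mice of 3 groups with 3 libraries each, and every mouse had received carbon tetrachloride (CCl4), a hepatocyte toxin, at 1 mL/kg intraperitoneally 2 times a week for 8 weeks, starting from animals bought at an age of 6 weeks. The liver fibrosis group (LFG) was sacrificed when the injections ended. The regression group (REG) was then injected through the tail vein with 200 µL of PBS, a salt buffer, 2 times a week over 4 further weeks. Mice of the hADMSCs-Exo group had the same injections with 250 µg of protein of exosomes from human adipose mesenchymal stem cells in the buffer. No uninjured liver was among the libraries used, and LFG differs from the others in age and in time since CCl4 as well as in treatment, which cannot be told apart here. The hADMSCs group, which received the cells themselves, was not analysed here. The columns with the short name MSC_E were read as the exosome group.

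Library totals lay between 13837445 and 19840917 counts, and levels are given as CPM, the counts scaled to equal library totals after adjustment by the TMM method. The TMM factors ran from 0.808 in LFG 3 to 1.38 in LFG 1. LFG 3 stood apart from the rest: its log2 CPM correlated over 12760 genes with r of 0.834 and 0.874 with LFG 1 and LFG 2, and with r of 0.896 to 0.940 with the libraries of the other groups. Its summed level of 7 stellate cell markers was 30.1 CPM, against 915 and 562 CPM in LFG 1 and LFG 2, 107 to 180 CPM in REG and 36.2 to 90.4 CPM in hADMSCs-Exo. Every one of the 6 hepatocyte and 7 stellate markers had counts in every library. Results with LFG are therefore given with LFG 3 and without it for the 10 genes and, as counts, for the lists of related genes, and the part of cell make-up in them was not tested. In bulk liver, fewer cells of a type and less RNA per cell cannot be told apart.

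All 10 genes are protein coding and have the same start and end in the GENCODE M21 annotation of GRCm38. Igfbp1 (chr11:7197782-7202546, plus strand) and Igfbp3 (chr11:7206086-7213923, minus strand) are neighbours that are transcribed toward each other, with 3539 bases between their ends. RefSeq promoters of GRCm38.p6, read as the 250 bases before the start, were matched for 9 of the 10 genes at 14 starts, and Socs2 was not matched. The letters TTCNNNGAA, bound by STAT5, were searched on both strands and found for 1 gene, Igfals, at 2 of its 3 starts, while 7.02% of the 32851 promoters held them. The letters CAAAACA, the core of the insulin response element bound by FOXO1, were found for 1 gene, Igfbp1, while 5.56% of promoters held them. Only windows with a match are shown, with the matched letters in capitals, and those without one, an Igfals window among them, are not. Igfals and Igfbp1 are also the genes of the 10 that edgeR called against LFG without LFG 3, while it called 0 with all libraries. A link of the letters to these calls was not tested. A match is no proof of a site, and a window without a match says only that these letters are not in it.
Igfals, chr17:24877594-24877843, plus strand: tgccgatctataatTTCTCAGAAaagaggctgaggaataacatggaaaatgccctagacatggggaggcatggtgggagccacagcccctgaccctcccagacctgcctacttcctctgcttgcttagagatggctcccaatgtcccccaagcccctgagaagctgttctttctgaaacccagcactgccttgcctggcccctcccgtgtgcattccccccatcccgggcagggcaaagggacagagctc
Igfals, chr17:24877981-24878230, plus strand: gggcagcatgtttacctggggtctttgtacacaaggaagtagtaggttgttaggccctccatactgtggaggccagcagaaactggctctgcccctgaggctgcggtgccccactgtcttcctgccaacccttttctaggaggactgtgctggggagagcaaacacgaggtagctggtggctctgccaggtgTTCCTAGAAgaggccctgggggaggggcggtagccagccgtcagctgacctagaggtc
Igfbp1, chr11:7197537-7197786, plus strand: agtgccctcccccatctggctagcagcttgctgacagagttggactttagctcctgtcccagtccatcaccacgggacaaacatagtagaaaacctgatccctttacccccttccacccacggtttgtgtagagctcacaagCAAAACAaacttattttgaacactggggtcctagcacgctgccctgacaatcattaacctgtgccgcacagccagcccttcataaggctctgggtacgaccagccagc
The matched letters begin 236 and 58 bases before the respective Igfals starts and 108 bases before the Igfbp1 start.

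Per unit of length, measured as FPKM, Igfbp4 and Igfbp2 were the most abundant of these transcripts in REG and hADMSCs-Exo. Igfbp4 stood at the top in REG with 317 ± 13.6 FPKM (SD, n = 3) and in hADMSCs-Exo with 372 ± 83.0 FPKM (SD, n = 3), followed by Igfbp2 with 164 ± 10.8 FPKM and 159 ± 23.3 FPKM. Igf1 came next with 51.0 ± 3.58 FPKM in REG and 61.5 ± 7.23 FPKM in hADMSCs-Exo, and its libraries overlapped with those of the gene below it in both groups. Stat5b stood at 6.78 ± 0.360 FPKM in REG, and the feedback genes were lowest, Socs2 at 1.26 ± 0.591 FPKM and Cish at 0.982 ± 0.807 FPKM. In LFG the order opened with Igfbp1 at 542 ± 677 FPKM, but its libraries overlapped with those of Igfbp2 and Igfbp4.

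**Figure D1:**
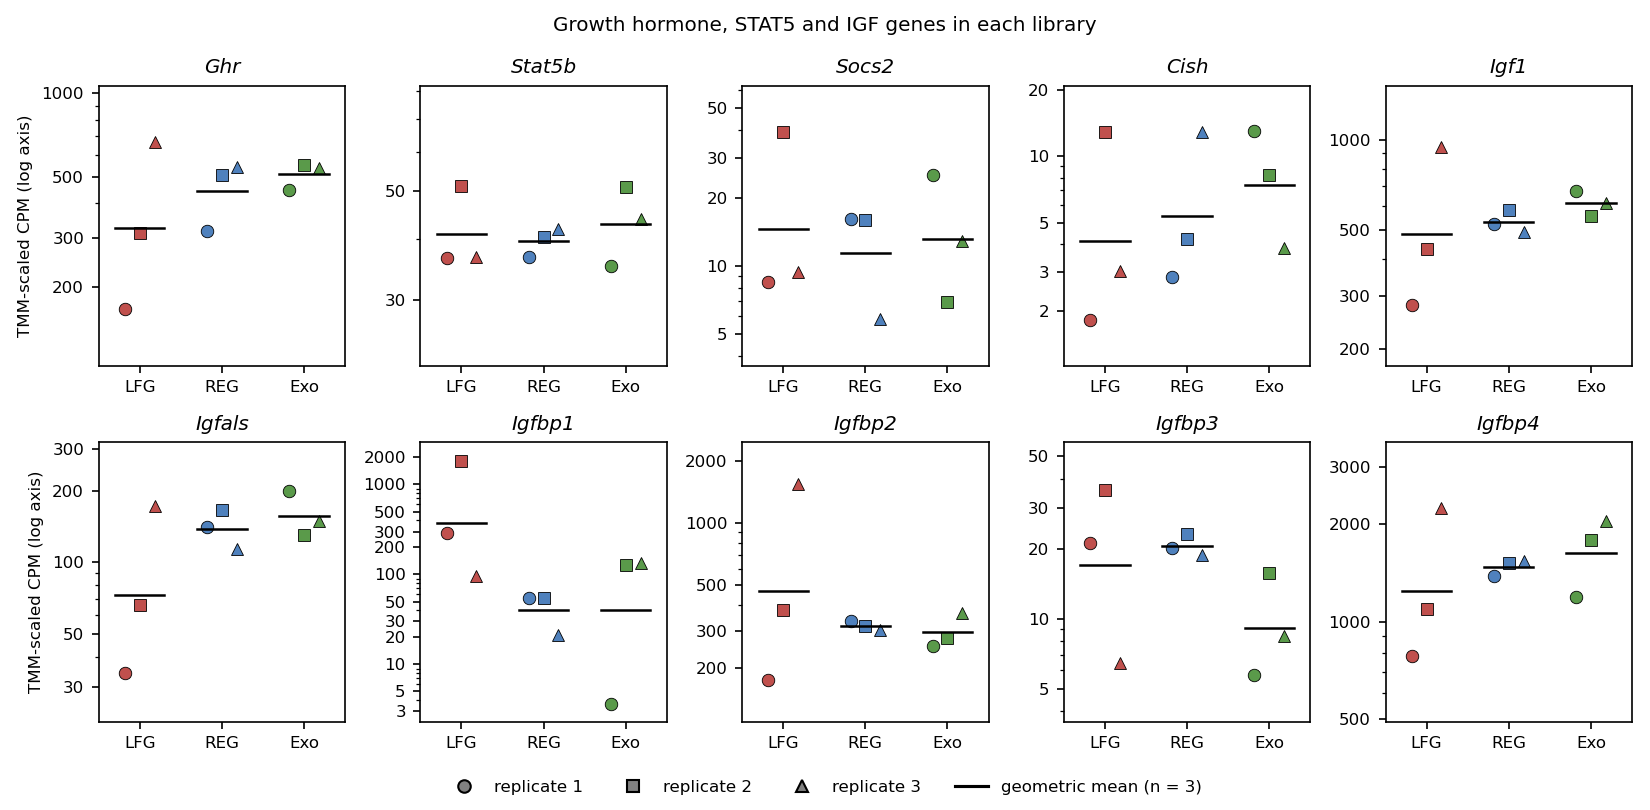
TMM-scaled CPM of each gene on a log axis, 1 point per library, in the LFG, REG and hADMSCs-Exo (Exo) groups, with a bar at the geometric mean of 3 libraries. The LFG points span more than a 2-fold range for every gene but Stat5b, and Igfbp3 lies lower in every hADMSCs-Exo library than in any REG library.

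Ghr, through which the hepatocyte senses growth hormone, had 166, 314 and 664 CPM in LFG 1, 2 and 3. It had 318, 507 and 540 CPM in REG and 448, 551 and 539 CPM in hADMSCs-Exo. On this scale LFG 1 and LFG 2 lay below every recovered library and LFG 3 above every other one, so the groups overlapped through LFG 3. This order rests on the TMM factors. In FPKM, which lacks them, Ghr was 37.7 in LFG 2 and 34.2 in REG 1. It was 59.3 in LFG 3 and 61.4 in hADMSCs-Exo 2. The fitted log2 fold change against LFG was 0.26 ± 0.51 (SE) in REG and 0.43 ± 0.48 in hADMSCs-Exo, with adjusted p of 0.866 and 0.914 (edgeR quasi-likelihood test, Benjamini-Hochberg). Without LFG 3 these became 0.97 ± 0.35 and 1.11 ± 0.31, with edgeR adjusted p of 0.0871 and 0.0744.

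Stat5b, which carries the signal to the nucleus, varied little. Its levels were 36.6, 51.2 and 36.7 CPM in LFG, 36.6, 40.4 and 41.8 CPM in REG, and 35.2, 51.0 and 43.8 CPM in hADMSCs-Exo. All groups overlapped, and the highest library was 1.45-fold above the lowest of the 9. The log2 fold change was -0.06 ± 0.19 for REG against LFG, 0.05 ± 0.23 for hADMSCs-Exo against LFG and 0.13 ± 0.16 for hADMSCs-Exo against REG, with edgeR adjusted p of 0.931, 0.977 and 0.809. Without LFG 3 it was -0.10 ± 0.18 and -0.0044 ± 0.22 against LFG.

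Socs2 and Cish are switched on by STAT5 within a short time of a hormone pulse and encode inhibitors of the receptor's signal. Socs2 had 8.50, 38.9 and 9.39 CPM in LFG, 16.1, 15.9 and 5.79 CPM in REG, and 25.1, 6.93 and 12.9 CPM in hADMSCs-Exo. Cish had 1.81, 12.9 and 3.04 CPM in LFG, 2.83, 4.23 and 12.9 CPM in REG, and 13.0, 8.25 and 3.84 CPM in hADMSCs-Exo. Each group held a low and a high library of both genes, at different replicates, and the largest of the 9 values exceeded the smallest 6.73-fold for Socs2 and 7.16-fold for Cish. LFG 2 was the highest LFG library for both, but REG 3 was the lowest REG library for Socs2 and the highest for Cish. Over the 9 libraries their log2 CPM had a Pearson r of 0.28, given as a description. The standard deviation within REG was larger than that of 95.3% of the 12760 genes for Socs2 and of 98.2% for Cish. No comparison of either gene passed the thresholds, and the log2 fold changes with all libraries ran from -0.57 ± 0.68 (Socs2, REG against LFG) to 0.49 ± 0.79 (Cish, hADMSCs-Exo against LFG). Without LFG 3, Socs2 had -0.86 ± 0.63 in REG and -0.64 ± 0.67 in hADMSCs-Exo against LFG, and Cish -0.08 ± 0.84 and 0.21 ± 0.76. Without LFG 2, its highest library for both, the same values were 0.50 ± 0.49 and 0.74 ± 0.55 for Socs2 and 1.47 ± 0.77 and 1.79 ± 0.62 for Cish, so that Socs2 turned from lower to higher (edgeR adjusted p of at least 0.710). Cish overlaps a pseudogene, Gm17040, and an antisense gene, Gm17041, and whether the counting used strand is not given in the sources used here.

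Igf1, the growth factor that hepatocytes secrete under growth hormone, had 281, 432 and 946 CPM in LFG, 522, 584 and 493 CPM in REG, and 674, 557 and 615 CPM in hADMSCs-Exo. As with Ghr, on the TMM scale LFG 1 and LFG 2 were below all recovered libraries and LFG 3 was above them all. In FPKM, LFG 2 had 47.42 and REG 3 had 47.25. Within the recovered groups Igf1 was steady, its standard deviation exceeding that of only 21.7% of genes in REG and 22.1% in hADMSCs-Exo. The log2 fold change was -0.05 ± 0.45 for REG against LFG and 0.15 ± 0.44 for hADMSCs-Exo against LFG (edgeR adjusted p = 0.979 and 0.968). Without LFG 3 it was 0.63 ± 0.25 and 0.80 ± 0.27 (edgeR adjusted p = 0.111 and 0.106). The REG and hADMSCs-Exo libraries overlapped, with a log2 fold change of 0.21 ± 0.14 and an edgeR adjusted p of 0.648. An antisense gene, Igf1os, lies over Igf1.

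Igfals encodes the acid labile subunit, which holds IGF-I and IGFBP3 in the circulation. It had 34.1, 65.9 and 172 CPM in LFG, 141, 166 and 114 CPM in REG, and 200, 130 and 149 CPM in hADMSCs-Exo. LFG 1 and LFG 2 lay below all 6 recovered libraries, and LFG 3 lay among them. With all libraries the log2 fold change against LFG was 0.64 ± 0.56 in REG and 0.82 ± 0.55 in hADMSCs-Exo (edgeR adjusted p = 0.679 and 0.858). Without LFG 3, Igfals rose in both, by 1.54 ± 0.31 in REG (2.91-fold, edgeR adjusted p = 0.0232) and by 1.69 ± 0.33 in hADMSCs-Exo (3.23-fold, edgeR adjusted p = 0.0321). The summed level of the 6 hepatocyte markers was 81138 and 133458 CPM in LFG 1 and LFG 2, 140922 CPM in LFG 3, 157855 to 165612 CPM in REG and 112366 to 131179 CPM in hADMSCs-Exo. It was thus higher in REG than in every LFG library, while hADMSCs-Exo lay between LFG 1 and LFG 2. Most of the sum was Alb, with 64219 CPM in LFG 1 and 139469 CPM in REG 1. In REG against LFG, 3 of the 6 markers were higher and 3 lower, with LFG 3 and without it. For 5 cholangiocyte markers the sum was 193 and 147 CPM in LFG 1 and LFG 2, 49.98 CPM in LFG 3, 68.1 to 74.3 CPM in REG and 53.0 to 128 CPM in hADMSCs-Exo. Most of this sum was Spp1, with 173 and 124 CPM in LFG 1 and LFG 2. In REG against LFG, 4 of these 5 markers were lower and 1 higher. The part of these sums in the values of Ghr, Igf1, Igfals and Igfbp4 was not tested. REG and hADMSCs-Exo overlapped, with a log2 fold change of 0.18 ± 0.20 and an edgeR adjusted p of 0.773.

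Igfbp1 spanned the widest range of the 10 genes. It had 289, 1842 and 95.8 CPM in LFG, 55.0, 55.4 and 21.0 CPM in REG, and 3.67, 129 and 135 CPM in hADMSCs-Exo. Every LFG library lay above every REG library, while hADMSCs-Exo overlapped with both, since hADMSCs-Exo 1, with 62 counts, was far below the other two. The standard deviation of its log2 CPM exceeded that of 99.9% of genes in hADMSCs-Exo, 96.7% in LFG and 94.8% in REG. For REG against LFG the log2 fold change was -4.06 ± 1.12 (edgeR unadjusted p = 0.00859, adjusted p = 0.333), and DESeq2 gave -4.04 ± 0.89 with an adjusted p of 0.0011. Without LFG 3, Igfbp1 fell by 4.55 ± 0.76 on the log2 scale in REG (edgeR adjusted p = 0.0159). Without LFG 2 the log2 fold change was -2.13 ± 0.61 (edgeR adjusted p = 0.652). For hADMSCs-Exo against LFG it was -3.07 ± 1.47 (edgeR adjusted p = 0.805), or -3.56 ± 1.26 without LFG 3 and -1.13 ± 1.25 without LFG 2 (edgeR adjusted p = 0.121 and 0.999). Between hADMSCs-Exo and REG the fitted log2 fold change was 1.03 ± 0.95 (edgeR adjusted p = 0.732), although the mean log2 CPM was 5.33 in both groups. Without hADMSCs-Exo 1 it was 1.58 ± 0.36 against REG (edgeR unadjusted p = 0.0025, adjusted p = 0.263) and -2.47 ± 1.27 against LFG.

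Igfbp2, another hepatocyte binding protein that rises in fasting, had 175, 381 and 1537 CPM in LFG, 334, 317 and 305 CPM in REG, and 253, 278 and 367 CPM in hADMSCs-Exo. The high LFG mean came from LFG 3, and LFG 1 was the lowest library of all. The log2 fold change was -1.13 ± 0.74 for REG and -1.22 ± 0.74 for hADMSCs-Exo against LFG (edgeR adjusted p = 0.588 and 0.833), and it turned to 0.24 ± 0.32 and 0.12 ± 0.35 without LFG 3. In REG its standard deviation exceeded that of only 6.94% of genes.

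Igfbp3, the main partner of IGF-I in serum, is made in rodent liver largely by cells other than hepatocytes. It had 21.3, 36.0 and 6.44 CPM in LFG, 20.2, 23.2 and 18.8 CPM in REG, and 5.74, 15.7 and 8.38 CPM in hADMSCs-Exo. All hADMSCs-Exo libraries lay below all REG libraries, while LFG overlapped with both. The log2 fold change for hADMSCs-Exo against REG was -1.06 ± 0.33 (edgeR unadjusted p = 0.012, adjusted p = 0.407), and DESeq2 gave an adjusted p of 0.116. Leaving out 1 library at a time moved it from -1.55 without hADMSCs-Exo 2 to -0.79 without hADMSCs-Exo 1. Against LFG it was -0.02 ± 0.53 in REG and -1.11 ± 0.64 in hADMSCs-Exo, and -0.42 ± 0.24 and -1.51 ± 0.41 without LFG 3 (edgeR adjusted p = 0.245 and 0.0692). The summed level of the 7 stellate markers moved with it, at 107 to 180 CPM in REG and 36.2 to 90.4 CPM in hADMSCs-Exo, all 7 being lower in hADMSCs-Exo and 5 of them with an edgeR unadjusted p under 0.05, beside 10.0% of all genes. The 6 endothelial markers were also all lower, but their sums overlapped, at 76.1 to 205 CPM in REG and 50.3 to 155 CPM in hADMSCs-Exo. The 6 Kupffer cell markers summed to 276 to 986 CPM in REG and 542 to 728 CPM in hADMSCs-Exo. All of these markers had counts in every library, and their part in the Igfbp3 difference was not tested.

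Igfbp4, which binds IGF-I and limits its action, had 784, 1094 and 2234 CPM in LFG, 1378, 1510 and 1540 CPM in REG, and 1192, 1779 and 2042 CPM in hADMSCs-Exo. On the TMM scale LFG 1 and LFG 2 were below all recovered libraries and LFG 3 was above them. In FPKM, LFG 3 had 409 and hADMSCs-Exo 3 had 432. The log2 fold change was 0.11 ± 0.42 for REG and 0.28 ± 0.45 for hADMSCs-Exo against LFG (edgeR adjusted p = 0.937 and 0.943), and 0.70 ± 0.25 and 0.85 ± 0.34 without LFG 3 (edgeR adjusted p = 0.0856 and 0.152).

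A call required a fold of 2 in either direction (1 on the log2 scale) beside an adjusted p under 0.05. By edgeR 0 of the 10 genes were called for hADMSCs-Exo against REG, where 0.00811% of all genes tested were called. At an unadjusted p under 0.05 it was 1 (Igfbp3) beside 10.0% of all genes, and 1 (Igfbp3) did not overlap between groups beside 15.5% of all genes. DESeq2 called 0 of the 10 in this comparison beside 0.501% of all genes with an adjusted p, and it had 1 (Igfbp3) at an unadjusted p under 0.05 beside 7.74%. Of the 10 log2 fold changes 8 were positive, with a median of 0.18 against 0.01 over all genes tested. The edgeR count stood at the share of all genes, the count without overlap below it and the DESeq2 count, of 1 gene, above it.

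For REG against LFG edgeR called 0 of the 10, as it called 0% of all genes, and DESeq2 called 1 (Igfbp1) beside 1.81% of all genes with an adjusted p. With an unadjusted p under 0.05 there was 1 (Igfbp1) beside 11.3% of all genes by edgeR and 11.1% by DESeq2, and 1 (Igfbp1) did not overlap beside 18.9%. Without LFG 3 edgeR called 2 of the 10, Igfals higher and Igfbp1 lower, beside 10.7% of all genes. Then 5 passed an unadjusted p of 0.05, with Ghr, Igf1 and Igfbp4 added, beside 37.3%, and the same 5 did not overlap on the TMM scale, beside 55.6%. In FPKM, which lacks the TMM factors, LFG 2 was above REG 1 for Ghr and above REG 3 for Igf1. The median over the 10 was -0.04 with all libraries and 0.08 without LFG 3, against -0.07 and -0.01 over all genes.

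For hADMSCs-Exo against LFG edgeR called 0 of the 10 beside 0% of all genes, and DESeq2 called 0 beside 0.422% of all genes with an adjusted p. At an unadjusted p under 0.05 it was 0 by edgeR beside 5.98% of all genes and 1 (Igfbp1) by DESeq2 beside 7.22%, and 0 did not overlap beside 12.3%. Without LFG 3 edgeR called 1 (Igfals) beside 5.97%. In that setting 6 passed an unadjusted p of 0.05, with Igfals, Ghr, Igf1 and Igfbp4 higher and Igfbp1 and Igfbp3 lower, beside 28.5%, and the same 6 did not overlap, beside 48.8%. The median was 0.10 with all libraries and 0.17 without LFG 3, against -0.06 and 0.00414 over all genes. Both comparisons with LFG use the same LFG libraries, so their likeness is not a repeat of one result.

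**Figure D2:**
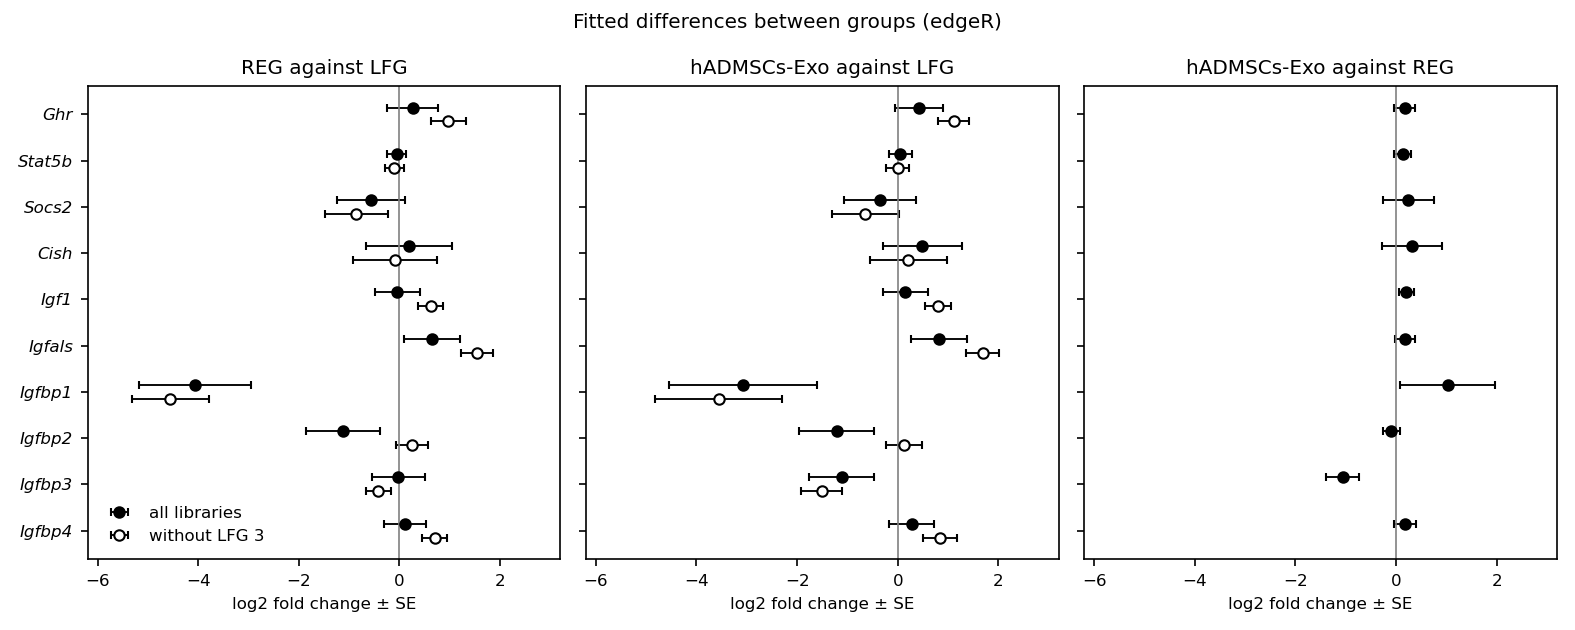
Log2 fold change with its SE from the edgeR fits for each gene in 3 comparisons, with all libraries (filled) and without LFG 3 (open). Igfals moves from 0.64 to 1.54 in REG and from 0.82 to 1.69 in hADMSCs-Exo when LFG 3 is left out, and Igfbp2 changes sign in both.

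The binding protein that led among the 4 differed between the LFG libraries. As a share of the summed FPKM of Igfbp1 to Igfbp4, Igfbp1 took 40.4%, 72.2% and 4.48% in LFG, 6.73%, 6.51% and 2.58% in REG, and 0.585%, 13.1% and 11.7% in hADMSCs-Exo. Igfbp4 took 37.9%, 14.8% and 36.1% in LFG, 58.3% to 65.3% in REG, and 61.5% to 65.6% in hADMSCs-Exo. The 6 recovered libraries were thus alike in being led by Igfbp4, whereas LFG 1 and LFG 2 were led by Igfbp1 and LFG 3 by Igfbp2, at 59.3%. Igfbp3 stayed at 0.147% to 1.45% in all 9.

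**Figure D3:**
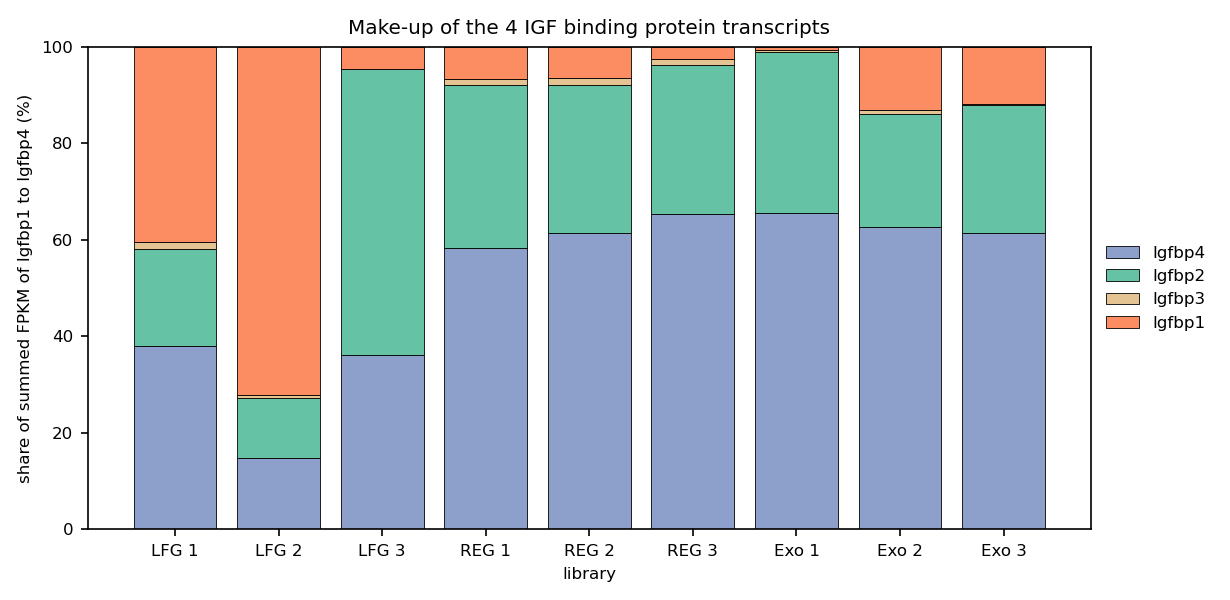
Share in percent of the summed FPKM of Igfbp1, Igfbp2, Igfbp3 and Igfbp4 in each library, 1 stacked bar per library. Igfbp1 takes 40.4% and 72.2% in LFG 1 and LFG 2 and at most 13.1% in any other library.

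The ratio of Igfbp1 to Igf1, 2 transcripts of opposite regulation by feeding, was 6.66, 27.7 and 0.658 in LFG on the FPKM scale. It was 0.685, 0.616 and 0.276 in REG and 0.0354, 1.50 and 1.42 in hADMSCs-Exo. LFG 1 and LFG 2 exceeded all recovered libraries, LFG 3 lay within the range of REG, and hADMSCs-Exo lay on both sides of REG. The ratio of Igfbp3 to Igfals, the partners that hold IGF-I in serum, was 0.631, 0.553 and 0.0379 in LFG, 0.145, 0.141 and 0.167 in REG, and 0.0290, 0.121 and 0.0569 in hADMSCs-Exo. All hADMSCs-Exo libraries were below all REG libraries in this ratio, as they were for Igfbp3 itself. With 3 libraries against 3, an exact two-sided permutation test cannot give a p below 0.1, so no test was made of the ratios.

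**Figure D4:**
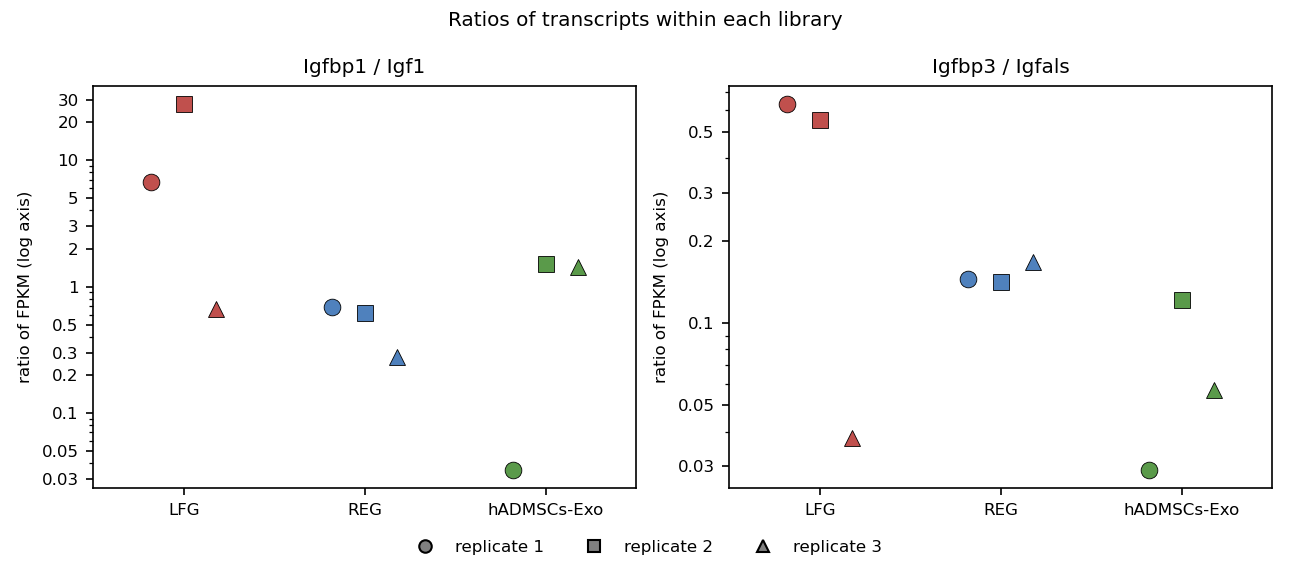
Ratios of FPKM within each library on log axes, Igfbp1 to Igf1 on the left and Igfbp3 to Igfals on the right, 1 point per library. Igfbp3 to Igfals is 0.141 to 0.167 in REG and 0.0290 to 0.121 in hADMSCs-Exo, while LFG holds both the highest value, 0.631, and a value of 0.0379.

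Several of the genes varied together across libraries. Over the 9 libraries the Pearson r of log2 CPM was 0.89 between Igf1 and Igfals, 0.87 between Igf1 and Ghr, and 0.91 between Ghr and Igfbp4. It was -0.71 between Igf1 and Igfbp3 and 0.59 between the neighbours Igfbp1 and Igfbp3. Igf1 had r of -0.15 with Stat5b and 0.03 with Socs2. These values describe 9 libraries of 3 groups, and LFG 1 and LFG 3, at opposite ends for Ghr and Igf1, weigh heavily in them.

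Among all 12759 other genes, those whose log2 CPM followed Igf1 most closely over the 9 libraries were Sbds (r = 0.99), Albfm1 (r = 0.98) and Mmaa (r = 0.98), and the 100th gene had r = 0.93. For Igfbp1 they were Rtn2 (r = 0.95), Lamtor3 (r = 0.94) and Cpt1c (r = 0.93), with 0.81 for the 100th. For Socs2 they were Lrif1 (r = 0.95), Gsta2 (r = 0.89) and Zfp512 (r = 0.88), and for Cish Lonrf1 (r = 0.95), Cdkl2 (r = 0.90) and Iqsec1 (r = 0.90). The 100th gene stood lower for these, at 0.64 for Socs2 and 0.71 for Cish.

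The other genes of growth hormone signaling were read from a list of 15, all of them tested. With all libraries 0 were called in any comparison. At an unadjusted p under 0.05, Stat5a, the close relative of Stat5b, was lower in REG than in LFG (log2 fold change -0.67 ± 0.27, edgeR adjusted p = 0.433), as was the STAT5 antagonist Bcl6 (-2.21 ± 0.93, edgeR adjusted p = 0.44). Bcl6 reached 98.9 CPM in LFG 3 and 58.0 CPM in hADMSCs-Exo 3 and was at most 23.2 CPM in the other 7 libraries. Without LFG 3, Stat5a and Bcl6 had -0.64 ± 0.27 and -0.68 ± 0.55 in REG (edgeR adjusted p = 0.132 and 0.397). In hADMSCs-Exo against LFG the suppressor Socs1 (1.48 ± 0.48) and the prolactin receptor Prlr (0.85 ± 0.27) were higher at an unadjusted p under 0.05 (edgeR adjusted p = 0.805 for both), and Prlr had 162, 136 and 123 CPM against 53.4, 97.7 and 80.7 CPM. Socs1 was near the floor, at 0.463 to 0.671 CPM in LFG and 1.07 to 1.99 CPM in hADMSCs-Exo. Without LFG 3, Socs1 and Prlr had 1.56 ± 0.52 and 0.90 ± 0.28 (edgeR adjusted p = 0.106 and 0.0909). The receptor's kinase Jak2 stayed between 13.1 and 19.8 CPM in all 9 libraries, with log2 fold changes of 0.06 ± 0.21, -0.06 ± 0.23 and -0.10 ± 0.14 for REG against LFG, hADMSCs-Exo against LFG and hADMSCs-Exo against REG, or -0.07 ± 0.16 and -0.20 ± 0.17 against LFG without LFG 3. The adaptor Sh2b1 and the transcription factor Stat3 lay at 36.7 to 70.0 CPM and 79.9 to 156 CPM. These 2 genes, the inhibitor Socs3, the phosphatase Ptpn6 and the leptin receptor Lepr had an edgeR unadjusted p above 0.05 in the 3 comparisons, with LFG 3 and without it. Ptpn1, another phosphatase, passed an unadjusted p of 0.05 in REG against LFG without LFG 3 (-0.53 ± 0.17, edgeR adjusted p = 0.0706) and in no comparison with all libraries. Without LFG 3, 2 of the 15 were called in REG and 1 in hADMSCs-Exo against LFG, beside 10.7% and 5.97% of all genes, each of them lower. In that setting the membrane protein Sirpa and the receptor adaptor Grb10 fell in REG against LFG, by 1.26 ± 0.29 and 1.56 ± 0.28 on the log2 scale (edgeR adjusted p = 0.0316 and 0.0178), against -0.76 ± 0.79 and -1.12 ± 0.65 with all libraries. Sirpa had -0.88 ± 0.21 in hADMSCs-Exo without LFG 3 (edgeR adjusted p = 0.0519). Grb10 also fell in hADMSCs-Exo against LFG, by 2.10 ± 0.39 (edgeR adjusted p = 0.0302), against -1.67 ± 0.72 with all libraries. The phosphatase Ptpn11 had -0.88 ± 0.17 in REG and -0.80 ± 0.18 in hADMSCs-Exo without LFG 3, short of the fold threshold (edgeR adjusted p = 0.0219 and 0.0418).

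Of 14 further genes of IGF and insulin reception, 10 were tested against LFG in REG, 9 in hADMSCs-Exo and 10 between the recovered groups. With all libraries 0 were called. Irs2, the hepatic insulin receptor substrate, had 23.9, 93.3 and 29.1 CPM in LFG, 10.2, 15.1 and 6.42 CPM in REG, and 5.27, 9.58 and 7.75 CPM in hADMSCs-Exo, so all LFG libraries were above the 6 others. Its log2 fold change was -2.19 ± 0.59 in REG and -2.70 ± 0.58 in hADMSCs-Exo (edgeR adjusted p = 0.323 and 0.805), and without LFG 3 Irs2 fell in both, with log2 fold changes of -2.42 ± 0.55 and -2.94 ± 0.53 (edgeR adjusted p = 0.0301 and 0.0278). Igf2r, the clearance receptor of IGF-II, had -0.66 ± 0.26 in REG and -0.65 ± 0.23 in hADMSCs-Exo against LFG, both at an unadjusted p under 0.05 (edgeR adjusted p = 0.416 and 0.805), and -0.80 ± 0.21 and -0.81 ± 0.16 without LFG 3, short of the fold threshold (edgeR adjusted p = 0.0403 and 0.0336). Between hADMSCs-Exo and REG the low-affinity binding protein Igfbp7 had -1.11 ± 0.47 and the inhibitor Stc2 -1.79 ± 0.72, both at an unadjusted p under 0.05 (edgeR adjusted p = 0.488 and 0.475). Stc2 was near the floor, at 0.690 to 1.17 CPM in REG and 0.0592 to 0.542 CPM in hADMSCs-Exo. The receptors Igf1r and Insr and the substrate Irs1 had an edgeR unadjusted p above 0.05 in the 3 comparisons with all libraries, and Igfbp5, Igfbp6 and the protease Htra1 also without LFG 3. Without LFG 3, 10 genes were tested in each comparison with LFG and 1 (Irs2) was called in each, lower, beside 10.7% of all genes in REG and 5.97% in hADMSCs-Exo. At an unadjusted p under 0.05, 4 were then lower in REG beside 37.3% of all genes, with Irs1 (-1.43 ± 0.42) and Igfbp7 (-0.73 ± 0.29) beside Irs2 and Igf2r (edgeR adjusted p = 0.0546 and 0.116 for the first pair). In hADMSCs-Exo 5 were lower and 1 higher beside 28.5% of all genes. Besides Irs2 and Igf2r these were Igf1r (-1.07 ± 0.39), Igfbp7 (-1.87 ± 0.47), Stc2 (-2.55 ± 0.77) and, higher, Insr (0.48 ± 0.18), with edgeR adjusted p of 0.127, 0.0571, 0.0868 and 0.129. Igf2, Pappa, Pappa2 and Stc1 had under 1 CPM in every library and were not tested.

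Genes that depend on the male pattern of growth hormone were read from a list of 18, which includes major urinary proteins and cytochromes with near-identical copies whose counts are uncertain. Their summed level was 4299, 4451 and 51556 CPM in LFG, 6362, 12501 and 10505 CPM in REG, and 13981, 11959 and 14210 CPM in hADMSCs-Exo. LFG 1 and LFG 2 were below every recovered library and LFG 3 far above. Cyp7b1, an oxysterol hydroxylase, had 8.04, 26.4 and 456 CPM in LFG, 15.0, 30.9 and 26.5 CPM in REG, and 37.8, 41.7 and 41.9 CPM in hADMSCs-Exo. All hADMSCs-Exo libraries were above all REG libraries for this gene. The same held for the fatty acid elongase Elovl3, with at most 0.112 CPM in LFG 1 and LFG 2, 74.2 CPM in LFG 3, 0.123 to 2.58 CPM in REG and 3.32 to 10.8 CPM in hADMSCs-Exo. Against REG, 16 of the 18 were higher in hADMSCs-Exo, with a median log2 fold change of 0.61, and 0 were called. Cyp7b1 (0.75 ± 0.24), Elovl3 (2.23 ± 0.76) and Mup1 (2.68 ± 0.99) had an unadjusted p under 0.05 there, beside 10.0% of all genes (edgeR adjusted p = 0.409, 0.428 and 0.452). Mup1 had 0, 0.824 and 0.265 CPM in REG and 5.15, 0.964 and 1.07 CPM in hADMSCs-Exo. It passed the filter on low counts through hADMSCs-Exo, where it is high, and is therefore no support. With all libraries 0 were called against LFG, and the lowest p belonged to Mup1 (-8.06 ± 2.96), Mup7 (-8.10 ± 3.49) and Susd4 (-4.04 ± 1.88) in REG and to Selenbp2 (-4.03 ± 1.76), Hsd3b5 (-6.11 ± 2.70) and Mup7 (-6.80 ± 3.04) in hADMSCs-Exo. The direction turned without LFG 3, where Mup1, Mup7 and Susd4 had 0.34 ± 1.16, 2.36 ± 1.31 and 1.41 ± 0.73 in REG. In hADMSCs-Exo Mup7 then rose by 3.60 ± 0.61, and Hsd3b5 had 3.74 ± 0.97 and Selenbp2 -0.15 ± 0.89 (edgeR adjusted p = 0.0259, 0.0616 and 0.931). Then 18 of 18 were higher in REG than in LFG, 2 of them called beside 10.7% of all genes, with a median of 1.64, and 17 of 18 were higher in hADMSCs-Exo, 8 of them called beside 5.97% of all genes, with a median of 2.89. The 2 called in REG are near the share of all genes. Elovl3 and Hsd3b5 had at most 0.112 CPM in LFG 1 and LFG 2 and passed the filter there only through the recovered libraries.

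Genes of the female pattern, again 18 and again with close copies among the cytochromes and sulfotransferases, summed to 364, 527 and 50.5 CPM in LFG, 1059, 236 and 209 CPM in REG, and 486, 243 and 174 CPM in hADMSCs-Exo. REG 1 was the highest of the 9 libraries for this list and the lowest of the recovered libraries for the male list, and also had the lowest Ghr of the recovered libraries. Cux2, a repressor of male genes, had 0.631, 1.90 and 0.358 CPM in LFG, 81.1, 19.3 and 1.01 CPM in REG, and 57.2, 18.3 and 4.98 CPM in hADMSCs-Exo. Acot3, an acyl-CoA thioesterase, had 1.52, 3.52 and 6.79 CPM in LFG, 57.8, 32.3 and 11.3 CPM in REG, and 33.5, 21.0 and 28.9 CPM in hADMSCs-Exo, so all LFG libraries were below the 6 others. Its log2 fold change was 3.14 ± 0.75 in REG and 2.84 ± 0.53 in hADMSCs-Exo (edgeR adjusted p = 0.309 and 0.805), and without LFG 3 Acot3 rose by 3.81 ± 0.74 and 3.50 ± 0.41 (edgeR adjusted p = 0.0204 and 0.0157). Cux2 had 5.12 ± 1.48 and 4.75 ± 1.04 against LFG (edgeR adjusted p = 0.351 and 0.805), and 4.82 ± 1.59 and 4.45 ± 1.09 without LFG 3 (edgeR adjusted p = 0.0707 and 0.0535). Sult3a1 followed in REG, with 2.33 ± 1.37, or 1.81 ± 1.12 without LFG 3 (edgeR adjusted p = 0.551 and 0.273). Against REG, 9 of the 11 tested were lower in hADMSCs-Exo, with a median of -0.35 and 0 called, among them Cyp2a4 (-2.16 ± 1.04) and Cyp2b9 (-1.35 ± 0.72). Without LFG 3, 1 of 15 was called higher in REG than in LFG and 0 lower, beside 10.7% of all genes, with a median of 0.06. In hADMSCs-Exo 1 of 15 was called higher and 4 lower, beside 5.97% of all genes, and 11 of 15 had a negative log2 fold change, with a median of -0.71. Among the 4, named after their values were seen, Cyp2a4 fell by 2.28 ± 0.29 on the log2 scale (edgeR adjusted p = 0.0185). The sulfotransferases Sult2a1 and Sult2a2 were also among them, Sult2a1 with 2.69 and 4.64 CPM and Sult2a2 with 36.5 and 38.4 CPM in LFG 1 and LFG 2. Both were at 0 in LFG 3 and had at most 0.0592 and 0.315 CPM in hADMSCs-Exo. They thus passed the filter on low counts only through LFG 1 and LFG 2, where they are high. Their calls among the 4 are therefore no support beside the share of all genes. In REG 2 and REG 3 Sult2a1 was also at 0 and Sult2a2 at 0.0549 and 0.212 CPM, while REG 1 had 2.34 and 26.9 CPM, so the low levels were not confined to hADMSCs-Exo.

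**Figure D5:**
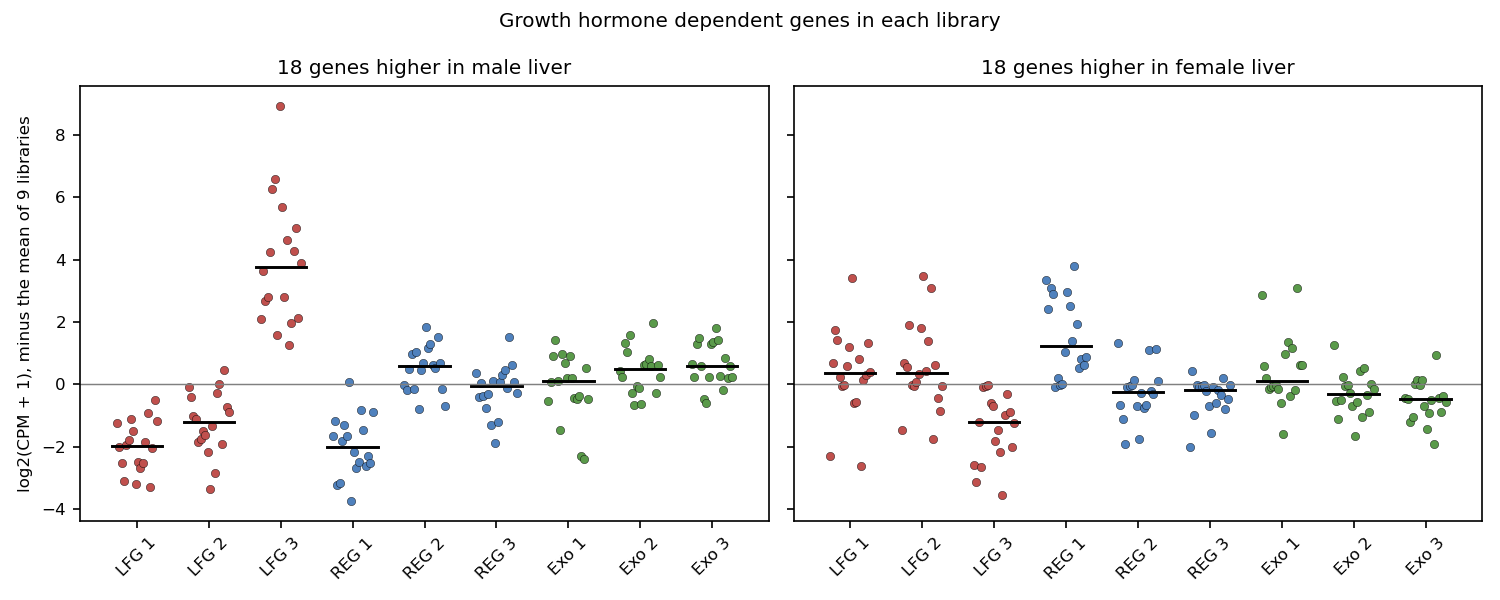
Log2(CPM + 1) of each gene minus its mean over 9 libraries, for 18 genes higher in male liver (left) and 18 higher in female liver (right), 1 point per gene and library, with a bar at the median. LFG 3 lies above all other libraries on the left, where its summed level is 51556 CPM, and REG 1 is the highest on the right, where its sum is 1059 CPM.

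Genes that answer to insulin and FOXO1 were read from a list of 10, since Igfbp1 belongs to the same response. The kinase-regulated factor Foxo1 itself had 34.3, 46.6 and 36.4 CPM in LFG, 23.2, 20.9 and 25.2 CPM in REG, and 28.0, 43.1 and 36.3 CPM in hADMSCs-Exo, with all REG libraries below the 6 others. G6pc, the last enzyme of glucose release, had 282, 936 and 404 CPM in LFG, 31.8, 62.6 and 253 CPM in REG, and 29.0, 204 and 148 CPM in hADMSCs-Exo, and the lowest library was hADMSCs-Exo 1, as for Igfbp1. In REG against LFG, 0 were called and 6 had an unadjusted p under 0.05 beside 11.3% of all genes, 5 of them lower. Foxo1 had -0.75 ± 0.19 and the transaminase Tat -1.12 ± 0.39, while the insulin-driven lipogenic factor Srebf1 had 1.38 ± 0.38 (edgeR adjusted p = 0.309, 0.392 and 0.333). In hADMSCs-Exo against REG, 0 were called, and 2 were higher and 2 lower at an unadjusted p under 0.05 beside 10.0% of all genes, among them Srebf1 (-0.99 ± 0.20), the pseudokinase Trib3 (-1.05 ± 0.32) and Foxo1 (0.63 ± 0.19) (edgeR adjusted p = 0.358, 0.407 and 0.407). In hADMSCs-Exo against LFG the lowest p belonged to G6pc (-2.10 ± 0.76), Ppargc1a (-0.94 ± 0.66) and Srebf1 (0.38 ± 0.32), with edgeR adjusted p of 0.805, 0.862 and 0.892. Without LFG 3, 1 of 10 was called higher (Srebf1, by 1.83 ± 0.29) and 1 lower (Ppargc1a, by 2.06 ± 0.21 on the log2 scale) in REG (edgeR adjusted p = 0.0154 and 0.0104) beside 10.7% of all genes, and 0 were called in hADMSCs-Exo beside 5.97%. Foxo1 then had -0.77 ± 0.18, short of the fold threshold, and Tat -1.11 ± 0.40 in REG (edgeR adjusted p = 0.0347 and 0.0854). In hADMSCs-Exo, G6pc, Ppargc1a and Srebf1 then had -2.24 ± 0.77, -1.37 ± 0.37 and 0.81 ± 0.20 (edgeR adjusted p = 0.112, 0.0678 and 0.0536). The feeding state and the hour of sacrifice are not given in the labels, and their part in these values was not tested.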

How the data were processed

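Per the submitters' processing notes, reads were handled with cutadapt 1.15, HISAT2 2.0.5, HTSeq 0.9.1 and DESeq 1.30.0 on GRCm38. The authors deposited raw counts per gene for 9 libraries, not normalized. The deposited FPKM served to compare genes with each other, and it equals counts per kilobase of gene and per library total within 9.19e-07 of its value. The use of strand is not given in the sources used here.

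Counts were tested with edgeR 4.0.16 (R 4.3.3). Its quasi-likelihood test was two-sided and used TMM scaling and the package's filter on low counts, p-values were adjusted over all genes tested by the Benjamini-Hochberg method, and each fit held the 6 libraries of a comparison. The SE is the log2 fold change divided by the square root of F. All 10 genes passed the filter in all 3 comparisons. Log2 CPM used a prior count of 2. Alternatives were RLE size factors, DESeq2 1.42.0, a filter of only 1 count, a single fit of all 9 libraries, a block for the replicate number, each library left out, plain library totals for the overlap of groups, and, chosen after seeing the data, plain library totals in the fits and overlap without LFG 3. The test was checked on simulated data. Where leaving out a library left 2 against 3, the spread was pooled over both groups. Tables and plots used Python 3.11.15, pandas 2.3.3, numpy 2.4.6 and matplotlib 3.10.9.

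Named genes were the 10, all genes of the lists of growth hormone signaling and of IGF reception, the 3 lowest p of the male, female and insulin lists in each comparison, and the 3 nearest patterns of 4 genes. The results of 2 genes under this rule are not reported here. The 10 genes and the lists were chosen with earlier results of these data known. Promoter sequences are from RefSeq. Replicates differed by more than sampling noise (chi-square per gene of 27.0 to 299), and nothing in the labels says that they came from separate animals, so p-values may measure technical spread. Deviations from the group means correlated over genes between same-numbered libraries. In hADMSCs-Exo with LFG r was 0.101, 0.308 and 0.180, above 0.1 in each case. This does not show pairs, since no label links the numbers and LFG was sacrificed before the 4 weeks of injections. The main fits did not pair libraries. In hADMSCs-Exo with REG r was 0.159, 0.00939 and 0.0336, and in REG with LFG 0.415, -0.202 and 0.305. At these totals the spread between libraries, not counting error, sets the precision, the lowest count of any of the 10 genes in a library being 34 (Cish, LFG 3).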

Additional observations from a re-analysis of the deposited data

How the results depend on the processing

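Of 120 alternative values of the 10 log2 fold changes in each comparison, 112 kept their sign and side of the threshold for hADMSCs-Exo against REG, 96 for REG against LFG and 111 for hADMSCs-Exo against LFG. The cause of the changes was not tested. For REG against LFG, Cish was -0.0070 with plain library totals, Igf1 was 0.0067 and Igfbp3 0.017 with no filter on low counts, and with the replicate number as a block they were 0.15 and 0.25. The block changed no call and moved no count of the 10 genes by over 1.5 times in any comparison. Only in hADMSCs-Exo with LFG did same-numbered libraries have r above 0.1 in each case, which does not show pairs. In that comparison the block moved Igfbp1 from -3.07 to -3.45 and Igfbp2 from -1.22 to -0.66. For REG against LFG it moved Igfbp1 from -4.06 to -3.14 and Igfbp2 from -1.13 to -0.51, and for hADMSCs-Exo against REG Igfbp1 from 1.03 to 0.49. Stat5b was -0.079 for hADMSCs-Exo against LFG with plain library totals, which moved the median of all genes from -0.07 to -0.27 for REG and from -0.06 to -0.18 for hADMSCs-Exo against LFG.

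For hADMSCs-Exo against REG, the count at an unadjusted p under 0.05 was 0 with all 9 libraries in one fit (beside 3.79% of all genes, as in the brackets that follow) and 1 to 3 when single libraries were left out (4.92% to 10.7%), and 2 genes (Igf1 and Igfbp3) did not overlap with plain library totals (16.0%). For REG against LFG, DESeq2 called 1 gene (1.81%), and leaving out single libraries gave 0 to 2 calls (0% to 10.7%), 1 to 5 genes at an unadjusted p under 0.05 (4.51% to 37.3%) and, without LFG 3, 5 that did not overlap (55.6%). For hADMSCs-Exo against LFG, DESeq2 and the fit of all 9 libraries gave 1 gene at an unadjusted p under 0.05 (7.22% and 9.74%), and leaving out single libraries gave 0 to 1 calls (0% to 5.97%), 0 to 6 genes at an unadjusted p under 0.05 (2.91% to 28.5%) and, without LFG 3, 6 that did not overlap (48.8%). The highest counts and shares against LFG were those without LFG 3.

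Leaving out single libraries gave these lowest and highest log2 fold changes for the genes that changed sign. For hADMSCs-Exo against REG, Ghr ran from -0.020 to 0.31, Stat5b from -0.0045 to 0.26, Socs2 from -0.35 to 0.59, Cish from -0.14 to 1.24, Igfals from -0.010 to 0.31 and Igfbp2 from -0.27 to 0.014. For REG against LFG, Ghr ran from -0.10 to 0.97, Stat5b from -0.14 to 0.12, Socs2 from -0.92 to 0.50, Cish from -0.69 to 1.47, Igf1 from -0.36 to 0.63, Igfbp2 from -1.58 to 0.24, Igfbp3 from -0.42 to 0.58 and Igfbp4 from -0.16 to 0.70. For hADMSCs-Exo against LFG, Stat5b ran from -0.070 to 0.24, Socs2 from -0.91 to 0.74, Igf1 from -0.16 to 0.80 and Igfbp2 from -1.68 to 0.12. Besides LFG 3, LFG 2 moved the values of Igfbp1, Socs2 and Cish against LFG, REG 3 those of Cish (1.24 for hADMSCs-Exo against REG and -0.69 for REG against LFG without it), and hADMSCs-Exo 1 those of Socs2, Cish and Igfbp1 (1.58 against REG and -2.47 against LFG without it). With 3 libraries a group, small differences of Socs2, Cish and Igfbp1 could not be seen over their spread.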

Other observations

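The 10 acute phase genes of a list fixed with earlier results known, among them serum amyloid, haptoglobin and orosomucoid genes, summed to 18516, 19916 and 24307 CPM in LFG, 28682, 22684 and 23394 CPM in REG, and 24434, 22360 and 51390 CPM in hADMSCs-Exo, where hADMSCs-Exo 3 lay above the rest. In hADMSCs-Exo against LFG 10 of 10 had a positive log2 fold change, with a median of 0.70, and in hADMSCs-Exo against REG 9 of 10, with a median of 0.69. By edgeR 0 were called in either, and 2 in each had an unadjusted p under 0.05, beside 5.98% and 10.0% of all genes. Without LFG 3, 0 of 10 were called in hADMSCs-Exo against LFG.

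Of 12 circadian clock genes, 11 were tested in each comparison and 0 were called by edgeR with all libraries. At an unadjusted p under 0.05, 2 were higher and 2 lower in hADMSCs-Exo than in REG, beside 10.0% of all genes, and 1 was higher and 3 lower in REG than in LFG, beside 11.3%. Without LFG 3, 2 rose and 3 fell in REG against LFG, with adjusted p as low as 0.00855 (edgeR), beside 10.7% of all genes called. In hADMSCs-Exo against LFG 0 of the 11 had an edgeR unadjusted p under 0.05 with all libraries, beside 5.98% of all genes, and 0 were called without LFG 3, beside 5.97%. The hour of sacrifice is not given in the labels, and the part of the clock in the values of Igfbp1, Socs2 and Cish was not tested.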
